A study of Mus musculus with 20 samples.

Results

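The genes described here are 35 genes of cholesterol and fatty acid synthesis and of the SREBP system that controls them. They were chosen by their gene symbols in the array annotation, and each was read from its brightest probe over the 20 arrays. All 35 were found among 30199 gene symbols on the array, and all 35 were among the 22264 of 39429 probes that were tested. RNA of sorted CD4 T cells was measured on 20 single-colour arrays, 1 array per sorted sample, to set the follicular fractions of 2 kinds of lymphoid tissue side by side.

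All mice were of the strain B6.Cg-Foxp3<tm1Mal>, in which GFP reports Foxp3, of both sexes and 8 to 14 weeks old, and each sample was a pool of 8 to 15 mice. Cells from peripheral lymph nodes (pLN) were taken on day 12 (d12, 2 arrays per fraction) or day 25 (d25, 1 array per fraction) after immunisation under the skin with keyhole limpet hemocyanin in alum. Cells from Peyer's patches (PP, 2 arrays per fraction) carry neither a day nor immunisation in the labels, while all pLN labels give immunisation. The methods, however, name PP and pLN together in their statement of sorting on day 12 or day 25 after immunisation. They give no day for PP alone. Naive T cells were sorted as GFP-, PD1 low and GL7-, regulatory T cells (Treg) as GFP+, PD1 low and GL7-, follicular helper cells (TFH) as GFP-, PD1 high and GL7+, and follicular regulatory cells (TFR) as GFP+ and PD1 high with or without GL7. PP gave no naive fraction but a second TFH fraction that was GL7-. The 12 groups are thus gates and not pure lineages, and nothing in the labels says that the samples of a group came from separate pools of mice, so the p-values measure the spread between arrays, which may be technical.

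Cells make cholesterol from acetyl-CoA through mevalonate and squalene, and the same acetyl-CoA feeds fatty acid chains that are then lengthened and desaturated. The transcription factors SREBP-1 and SREBP-2 switch on most of these enzymes. When sterols are scarce, the escort protein Scap carries them from the endoplasmic reticulum to the Golgi, where they are cut loose, and when sterols are plentiful the Insig proteins hold Scap back. Activated T cells are known to raise this programme when they grow and divide.

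The RefSeq promoter table (assembly GRCm38.p6) held 37 start sites of 28 of the 35 genes, each with 250 bases before and 50 after the start. Sqle, Fdps, Stard4, Scd1, Scd2, Fdft1 and Fads1 were not in the table and were not searched. The windows below show the 250 bases before the start of Hmgcs1, the only 1 of these 28 genes with a match to the sterol regulatory element searched. They also show those of the 4 genes on whose levels most of the following results turn, so that the letters can be set beside the levels. Capitals mark exact matches to TCACNCCAC, the form of the sterol regulatory element searched, or CCAAT, the NF-Y box, on either strand. Other forms of the sterol regulatory element were not searched.
Hmgcs1, chr13:119690101-119690350, + strand: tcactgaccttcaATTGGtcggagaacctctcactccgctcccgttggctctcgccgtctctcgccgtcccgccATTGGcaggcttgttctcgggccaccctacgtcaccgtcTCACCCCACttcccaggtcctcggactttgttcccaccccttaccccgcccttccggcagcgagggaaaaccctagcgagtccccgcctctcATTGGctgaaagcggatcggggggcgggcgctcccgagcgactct
Acss2, chr2:155517793-155518042, + strand: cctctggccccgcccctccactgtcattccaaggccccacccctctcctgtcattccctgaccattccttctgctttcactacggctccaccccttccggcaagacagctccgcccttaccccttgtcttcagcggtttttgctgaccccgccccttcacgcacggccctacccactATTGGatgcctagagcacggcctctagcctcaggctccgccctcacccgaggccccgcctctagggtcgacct
Tm7sf2, chr19:6067851-6068100, - strand: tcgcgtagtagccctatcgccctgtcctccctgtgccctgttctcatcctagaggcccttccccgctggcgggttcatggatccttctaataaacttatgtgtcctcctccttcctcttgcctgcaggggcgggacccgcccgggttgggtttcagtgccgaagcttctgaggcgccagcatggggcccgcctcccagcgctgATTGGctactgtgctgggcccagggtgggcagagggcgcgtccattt
Fads2, chr19:10101504-10101753, - strand: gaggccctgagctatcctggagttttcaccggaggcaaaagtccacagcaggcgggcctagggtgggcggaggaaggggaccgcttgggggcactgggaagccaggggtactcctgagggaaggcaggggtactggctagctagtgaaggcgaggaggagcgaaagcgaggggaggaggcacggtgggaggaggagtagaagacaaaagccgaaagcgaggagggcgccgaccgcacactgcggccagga
Srebf2, chr15:82147019-82147268, + strand: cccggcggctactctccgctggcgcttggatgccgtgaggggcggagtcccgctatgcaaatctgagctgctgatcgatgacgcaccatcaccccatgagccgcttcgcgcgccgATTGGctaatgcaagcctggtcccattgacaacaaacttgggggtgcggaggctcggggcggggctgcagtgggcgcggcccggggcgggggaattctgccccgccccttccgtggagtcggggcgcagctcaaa
TCACNCCAC was found in 1 of the 37 windows (2.70%) and in 1.24% of all 32851 promoters in the table. CCAAT was found in 23 of 37 windows (62.2%), which belong to 22 genes, and in 37.4% of all promoters. In the windows shown, the box began 47 bases before the start of Tm7sf2, 73 before that of Acss2 and 135 before that of Srebf2, and Fads2 had neither motif. These matches describe letters and are not binding sites.

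The arrays lay on 5 slides of 4: pLN d12 replicates 1 and 2 on slides 1 and 2, pLN d25 on slide 3, and PP replicates 1 and 2 on slides 4 and 5. Slide and RNA input (50 ng on slides 1 and 4, 40 ng on the others) go with replicate, and slide goes with tissue and day. The sorted fractions carried their defining markers. The 5 T cell markers summed to 369417 to 725073 units of normalised intensity, and Foxp3, Il2ra, Ikzf2 and Lrrc32 together lay between 41719 and 95664 in Treg and TFR arrays, against at most 9015 in the others. Slide 4 stood apart: 11 B cell markers summed to 23377 to 162833 there, 6869 to 16699 on slide 5 and 5843 to 20978 in pLN, and 9 epithelial markers to 7432 to 16399.8, 1163 to 2656 and 758 to 2444. At least 8 of the 9 epithelial markers were detected on each array of slide 4, at most 7 on slide 5 and at most 4 in pLN. Cycling-cell markers summed to 105682 and 102515 in TFH and 201977 and 157343 in TFR cells of pLN d12, against 7879 and 9535 in naive and 32970.0 and 20841 in Treg cells. The local background of pLN d12 TFR replicate 2 was 268 units, against 24 to 78 on the other arrays. An intensity is the geometric mean of the 4 features of a probe, normalised so that each array's 75th percentile is 1500 and with a floor of 20, and a gene counts as detected where at least 3 features were well above background. In bulk samples such as these, fewer cells of a type and less RNA per cell cannot be told apart.

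Differences between groups were tested with limma over all 22264 probes. A gene passed, or was called, where its adjusted p was under 0.05 (Benjamini-Hochberg) and its log2 difference at least 1 in size, and rose or fell are used of such genes alone. Comparisons of 1 fraction with several others share its arrays. Across the 12 groups, limma's F test (p under 0.001 and adjusted p under 0.005) called 7 of the 35 genes, against 17.3% of all probes tested. They were Acss2 (adjusted p = 3.12e-06), Tm7sf2 (adjusted p = 3.4e-05), Fads2 (0.00034), Scd2 (0.000848), Fdft1 (0.00209), Srebf2 (0.00345) and Sqle (0.00355). Dhcr7 (0.00571), Mvk (0.0193) and Ebp (0.024) came next and missed that threshold. Group means of Tm7sf2 spanned 3.11 on the log2 scale and those of Acss2 2.85, with residual standard deviations of 0.19 and 0.11. By contrast the group means of Acsl4, Acly, Elovl1 and Insig2 spanned 0.45, 0.51, 0.53 and 0.57. The 32 genes other than Fads2, Scd1 and Acsl3 were detected on all 20 arrays. The heat map of all 35 genes shows a few rows that separate fractions or tissues within many that hardly vary.

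**Figure D1:**
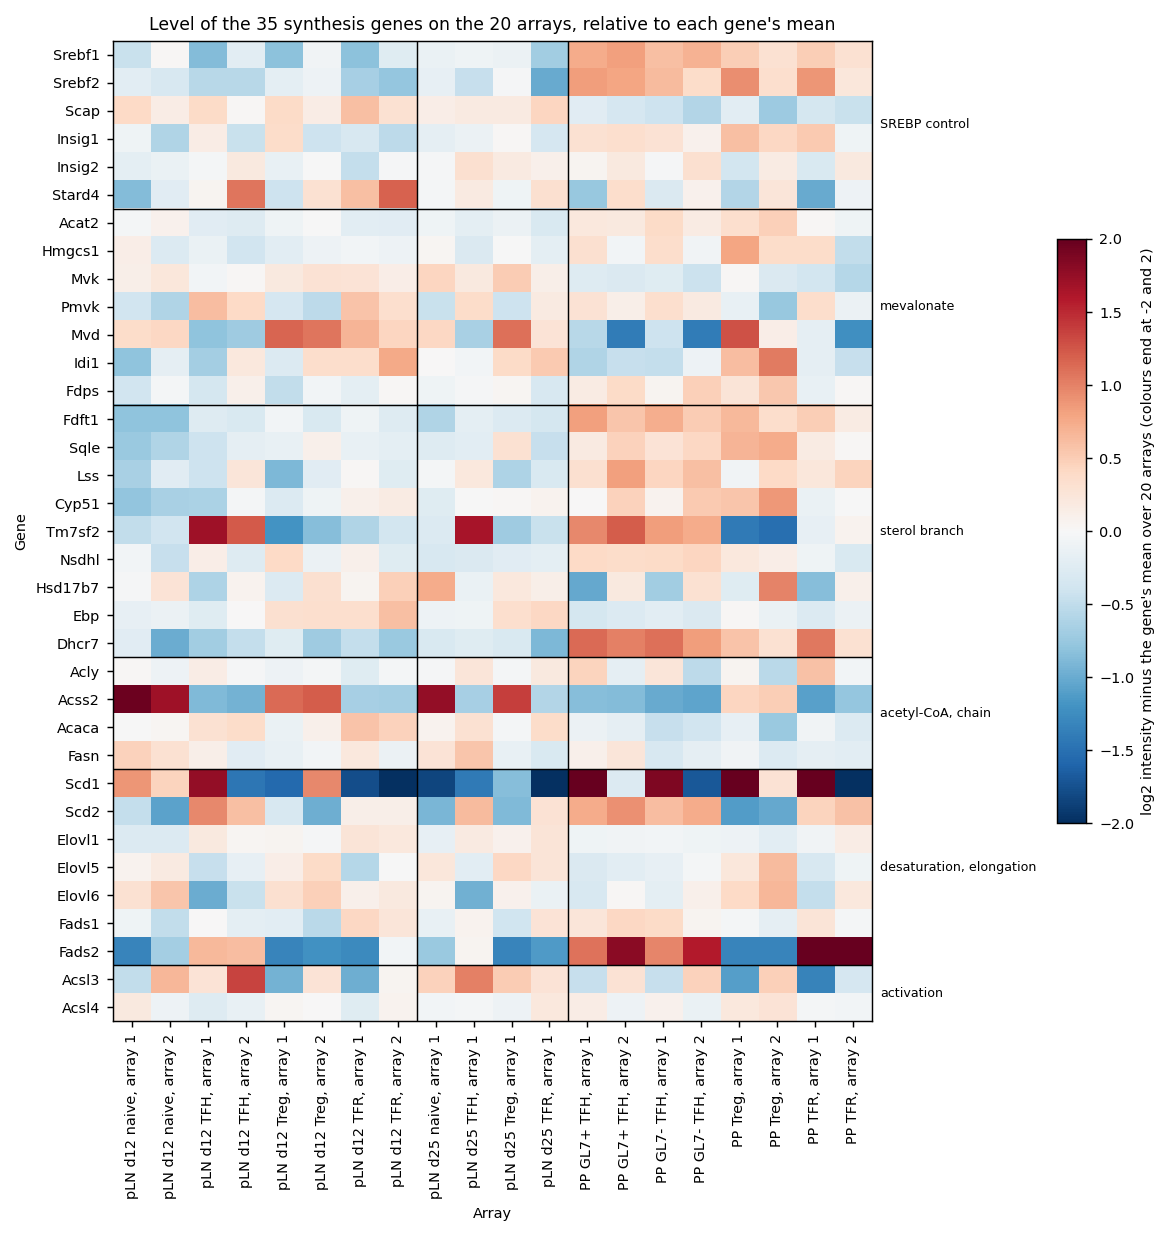
Log2 intensity of the 35 genes (rows, grouped by role) on the 20 arrays (columns), minus each gene's mean over all arrays. Red is above and blue below the mean, and colours end at -2 and 2. Acss2 is red in naive and Treg arrays of pLN, Tm7sf2 in TFH arrays, Fads2 in follicular PP arrays, and Srebf1, Srebf2, Fdft1 and Dhcr7 in all PP arrays.

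Among the control genes, both SREBP genes were higher in PP than in pLN. Srebf2, which encodes SREBP-2, the main activator of cholesterol synthesis (probe at chr15:82034765-82034824, + strand, mm9), read 5551 and 5177 in naive, 4404 and 4388 in TFH, 5616 and 6042 in Treg and 4087 and 3758 in TFR cells of pLN d12. On d25 the same fractions read 5779, 4706, 6373 and 3219, and in PP the GL7+ and GL7- TFH, the Treg and the TFR cells read 11498 and 11203, 10038 and 8364, 12243 and 8145, and 11894 and 7579. Every PP array was above every pLN array. Srebf2 rose from pLN d12 to PP by 1.37 in GL7+ TFH (SE 0.24, adjusted p = 0.0119) and by 1.28 in TFR cells (SE 0.24, adjusted p = 0.00645), as log2 differences of group means with n = 2 arrays each. In Treg cells the difference was 0.78 (SE 0.24, adjusted p = 0.15). Without PP replicate 1, that is without slide 4, it was 1.35 in TFH (adjusted p = 0.0315) and 0.95 in TFR cells (adjusted p = 0.0247), the latter under the minimum of 1 for a call. The TFH call was lost without any 1 of the 4 arrays compared, with log2 differences of 1.35 to 1.39 and adjusted p = 0.0576 to 0.0866. A second Srebf2 probe gave 1.04 (adjusted p = 0.375) and 1.17 (adjusted p = 0.217).

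Srebf1, which encodes SREBP-1, the activator of fatty acid synthesis, was a dimmer probe with the same tissue difference: 199 to 368 over the 12 pLN arrays and 446 to 639.8 over the 8 PP arrays, again without overlap. It rose by 1.33 in GL7+ TFH cells (SE 0.31, adjusted p = 0.0355), a call that was lost without any 1 of the 4 arrays compared, for example 1.00 without TFH replicate 1 of pLN d12. Without slide 4 the difference was 1.36, and the call was lost too. In TFR cells the difference was 0.93 (adjusted p = 0.0678) and in Treg cells 0.84 (adjusted p = 0.229). Of the 35 genes, 4 (Srebf1, Srebf2, Fdft1 and Dhcr7) had every PP array above every pLN array, which held for 1.88% of all probes tested, and 1 (Scap) had every PP array below every pLN array, which held for 1.87%. Slide, tissue and labelled immunisation cannot be told apart in these counts, and naive cells were in pLN alone.

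Scap, the escort of both SREBPs, read 12877 to 19355 in pLN and 7638 to 10954 in PP. Its log2 difference from pLN d12 to PP was -0.74 in Treg (adjusted p = 0.131), -0.49 in GL7+ TFH (adjusted p = 0.256) and -0.85 in TFR cells (adjusted p = 0.0251), all under the minimum of 1. Insig1, itself a target of the SREBPs and a brake on Scap, read 716 to 1642 over the 20 arrays, and its largest difference in the 10 comparisons of group pairs was 0.65 (TFR, PP minus pLN d12, adjusted p = 0.206). Insig2, the constitutive brake, read 1523 to 2657 and moved by no more than 0.33. Stard4, a soluble carrier of sterols, differed by 1.11 between TFH and naive cells (adjusted p = 0.186) and by -1.44 between TFR cells of PP and pLN (adjusted p = 0.089), and neither passed. None of the 6 control genes passed between fractions of 1 tissue.

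Of the 7 genes of the mevalonate steps, none passed in any comparison, and Mvd had the largest differences between fractions. Mvd, the diphosphomevalonate decarboxylase (probe at chr8:124957750-124957809, - strand, mm9), read 1812 and 1885 in naive, 811 and 857 in TFH, 3152 and 2974 in Treg and 2255 and 1905 in TFR cells of pLN d12, and 1878, 894, 3039 and 1708 on d25. In PP it read 963 and 532 in GL7+ TFH, 1063 and 534 in GL7- TFH, 3406 and 1542 in Treg and 1244 and 604 in TFR cells. Treg arrays were highest and TFH arrays lowest on each pLN slide, and within PP the Treg array was again the highest of its slide, while each PP fraction was 1.81 to 2.21 times higher on slide 4 than on slide 5. The log2 differences were -1.15 for TFH minus naive (adjusted p = 0.13), 1.31 for TFR minus TFH in pLN (adjusted p = 0.173) and -1.40 for TFR minus Treg in PP (adjusted p = 0.0896). The same 3 differences, with slide as a block, had adjusted p-values of 6.87e-05, 0.000138 and 5.74e-05. Within single slides they were -1.16, -1.14 and -1.07 (slides 1, 2 and 3), 1.48, 1.15 and 0.93 (the same slides), and -1.45 and -1.35 (slides 4 and 5).

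Mvk, the mevalonate kinase, was flat by comparison. It read 4111 and 4463 in naive, 3650.3 and 3865 in TFH, 4339 and 4623 in Treg and 4566 and 4156 in TFR cells of pLN d12, 5096, 4366, 5406 and 4124 on d25, and 3160.0 and 3106, 3205 and 2809, 3847 and 3098, and 2930.0 and 2568 in the GL7+ and GL7- TFH, the Treg and the TFR cells of PP. Its largest difference was -0.67 in TFR cells from pLN to PP (adjusted p = 0.0188). Pmvk, the next kinase, read 5424 and 4660.4 in naive, 5563 and 4889 in Treg, 10807 and 9271 in TFH and 10495 and 8872 in TFR cells of pLN d12, with no overlap between follicular and other cells. These are log2 differences of 0.99 for TFH minus naive (adjusted p = 0.0134) and 0.89 for TFR minus Treg (adjusted p = 0.0364), both just under the minimum of 1.

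Idi1, the isopentenyl diphosphate isomerase, had TFR minus Treg differences of opposite sign in the tissues. They were 0.64, 0.40 and 0.14 on the log2 scale on the 3 pLN slides and -0.80 and -1.51 on the PP slides. The difference between the tissues was -1.67 (SE 0.50, adjusted p = 0.256), and with slide as a block the adjusted p was 0.0103. The other entries to the pathway varied little. Acat2, the cytosolic thiolase, read 985 to 1686, Hmgcs1, the HMG-CoA synthase, 4747 to 11564, and Fdps, the farnesyl diphosphate synthase, 5811 to 11817 over the 20 arrays. Each of the 3 had its highest group mean in PP Treg cells, where the log2 difference from pLN Treg cells was 0.45, 0.73 and 0.67 (adjusted p = 0.154, 0.277 and 0.219).

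In the sterol branch, Tm7sf2 marked TFH cells. Tm7sf2, a sterol reductase that acts on the ring after lanosterol (probe at chr19:6062882-6062941, - strand, mm9), read 2226 and 2413 in naive, 10149 and 7309 in TFH, 1364 and 1742 in Treg and 2075 and 2425 in TFR cells of pLN d12. On d25 the values were 2583, 9821, 1920.3 and 2298, and in PP 6097 and 7292 in GL7+ TFH, 5592 and 5215.4 in GL7- TFH, 1178 and 1105 in Treg and 2804 and 3291 in TFR cells. Every TFH array was above every array of another fraction, and the PP TFR arrays lay between those of PP Treg and PP TFH cells. Tm7sf2 rose by 1.89 from naive to TFH cells (SE 0.21, adjusted p = 0.000118) and by 1.41 from Treg to TFR cells of PP (SE 0.21, adjusted p = 0.00146). TFR minus TFH cells gave -1.94 in pLN (SE 0.21, adjusted p = 0.000386) and -1.13 in PP (SE 0.21, adjusted p = 0.0116). The call in PP was lost without TFR replicate 1, -1.02 (adjusted p = 0.0825), and without GL7+ TFH replicate 2, -1.01 (adjusted p = 0.117). A second probe of the gene gave 1.85 (adjusted p = 0.000273), 1.41 (adjusted p = 0.00282), -1.86 (adjusted p = 0.000932) and -1.15 (adjusted p = 0.0185) for the 4 differences.

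The step from non-follicular to follicular cells moved Tm7sf2 more in the helper than in the regulatory lineage of pLN, by 1.35 (SE 0.29, adjusted p = 0.0434). This test of the difference was lost in 18 of 27 alternative settings, among them each omission of 1 naive, Treg or TFR array of pLN d12 (adjusted p = 0.0717 to 0.185) and of TFH replicate 1, 1.12 (adjusted p = 0.159). Its adjusted p was 0.0186 with slide as a block, and the second probe gave 1.40 (adjusted p = 0.0607).

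Fdft1, the squalene synthase that commits the pathway to sterols, was lowest in naive cells and highest in PP. It read 2289.6 and 2286 in naive, 3351 and 3241 in TFH, 3858 and 3237 in Treg and 3756 and 3342 in TFR cells of pLN d12, 2623, 3494, 3306 and 3119 on d25, and 7072 and 5844, 6608 and 5644, 6261 and 5086, and 5638 and 4447 in the GL7+ and GL7- TFH, the Treg and the TFR cells of PP. Each naive array was below each array of the other fractions of its slide. The log2 difference from pLN to PP was 0.96 in GL7+ TFH cells (adjusted p = 0.0183), under the minimum of 1. Sqle, the squalene epoxidase, read 1859 and 2062 in naive, 2344 and 2759 in TFH, 2813 and 3357 in Treg and 2820.3 and 2735 in TFR cells of pLN d12, 2624, 2700.5, 3859 and 2259.8 on d25, and 3528 and 4279.9, 3790.3 and 4172, 4975 and 5239, and 3515 and 3179.8 in the same PP fractions. Sqle was highest in PP Treg cells, 0.73 above pLN Treg cells (adjusted p = 0.0522) while PP TFR minus PP Treg was -0.61 (adjusted p = 0.0404) on the log2 scale, and neither was a call.

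Dhcr7, the last reductase on the way to cholesterol (probe at chr7:151033874-151033933, + strand, mm9), separated the tissues. It read 914 and 534 in naive, 656 and 769 in TFH, 900.2 and 649 in Treg and 763 and 637 in TFR cells of pLN d12 and 865, 905, 864 and 574 on d25. In PP the values were 2344 and 2140.0 in GL7+ TFH, 2297 and 1895 in GL7- TFH, 1589 and 1320.1 in Treg and 2225 and 1311 in TFR cells, all above pLN. Dhcr7 rose by 1.66 in GL7+ TFH (SE 0.31, adjusted p = 0.0157) and by 1.29 in TFR cells (SE 0.31, adjusted p = 0.0199), and the Treg difference was 0.92 (adjusted p = 0.193). With slide as a random block both calls were lost (adjusted p = 0.0691 and 0.0712). Without slide 4 the differences were 1.59 (adjusted p = 0.125) and 0.91 (adjusted p = 0.197). The first call was also lost without either TFH array of pLN d12, 1.54 (adjusted p = 0.0848) and 1.77 (adjusted p = 0.0643), or either GL7+ TFH array of PP, 1.59 (adjusted p = 0.116) and 1.72 (adjusted p = 0.0734). The second was lost without either TFR array of pLN d12, 1.424 (adjusted p = 0.0696) and 1.16 (adjusted p = 0.117), or TFR replicate 1 of PP, 0.91 (adjusted p = 0.133).

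Ebp, the sterol isomerase, was highest where Foxp3 was expressed in pLN. It read 24185 and 24849.7 in naive, 22891 and 27145 in TFH, 33924 and 34046 in Treg and 34142 and 41281 in TFR cells of pLN d12 and 25207, 25502, 33998 and 35964 on d25. In PP the values were 21289 and 22343, 23350.4 and 22127, 27578 and 24809, and 22380.3 and 24873 in the GL7+ and GL7- TFH, the Treg and the TFR cells. The difference from pLN to PP TFR cells was -0.67 (adjusted p = 0.0168), under the minimum. The lanosterol synthase Lss, the lanosterol demethylase Cyp51, and Nsdhl and Hsd17b7 of the demethylation complex passed in no comparison by their brightest probes. A second, dimmer Hsd17b7 probe was called lower in PP than in pLN TFR cells, -1.44 (adjusted p = 0.00617), where the brightest gave -0.65. The TFR minus Treg difference of Cyp51 was 0.37, 0.24 and 0.05 on the pLN slides and -0.68 and -0.87 on the PP slides, a tissue difference of -1.08 (adjusted p = 0.323, and 0.0187 with slide as a block). The plot of these differences by slide shows that Idi1, Cyp51 and Stard4 lay above 0 on all pLN slides and below 0 on both PP slides. None of these genes passed for the tissue difference in the fit without slide as a block. No share of all probes is given for this pattern.

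**Figure D2:**
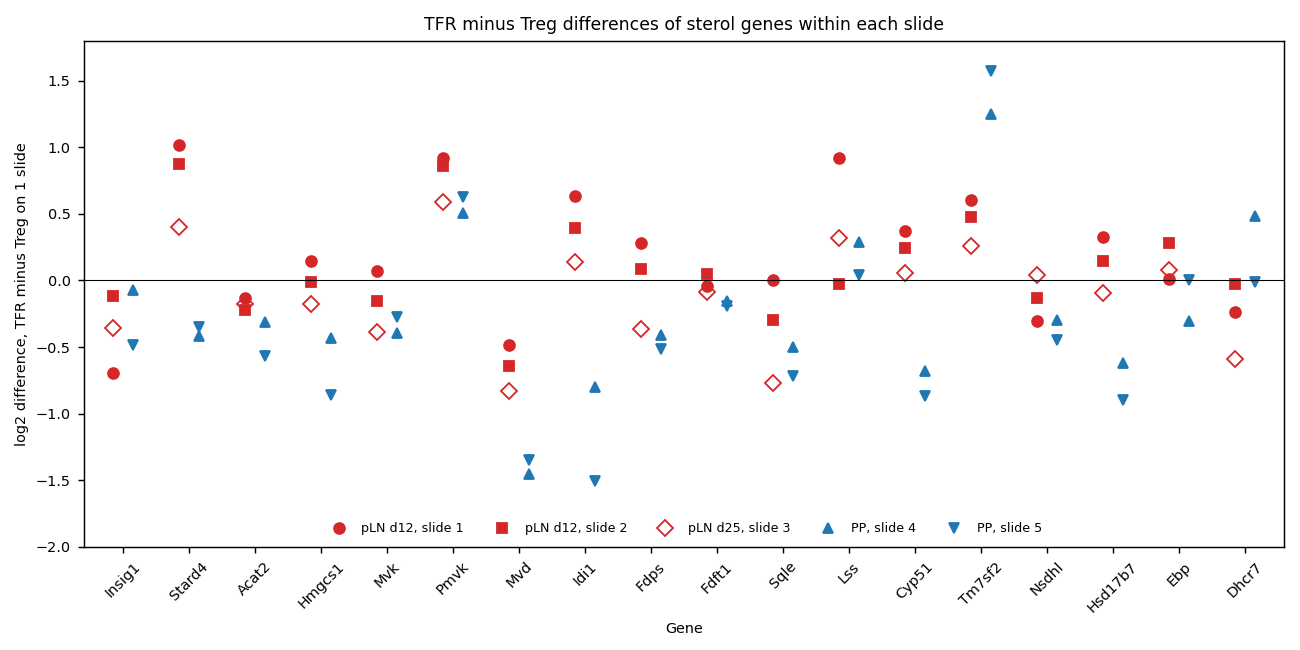
Log2 difference of TFR minus Treg cells within each slide (y axis) for the genes of the mevalonate and sterol steps, Insig1 and Stard4 (x axis), with pLN slides in red and PP slides in blue. Tm7sf2 and Mvd keep their sign in every slide, while Idi1, Cyp51 and Stard4 are above 0 in pLN and below 0 in PP. The tissue differences of Idi1, Cyp51 and Stard4 did not pass in the fit without slide as a block.

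In the supply of acetyl-CoA, Acss2 was low in every follicular fraction. Acss2, the cytosolic and nuclear enzyme that makes acetyl-CoA from acetate (probe at chr2:155388416-155388475, + strand, mm9), read 14483 and 12064 in naive, 2032 and 1943 in TFH, 8202 and 8683 in Treg and 2346 and 2329 in TFR cells of pLN d12. On d25 it read 12638, 2367, 9729 and 2494, and in PP 2063 and 2049.6 in GL7+ TFH, 1856 and 1800.4 in GL7- TFH, 5039 and 5223 in Treg and 1751 and 2173 in TFR cells. Every TFH and TFR array was below every naive and Treg array. Acss2 fell by 2.73 on the log2 scale from naive to TFH cells (SE 0.15, adjusted p = 2.92e-06), by 1.85 from Treg to TFR cells of pLN (SE 0.15, adjusted p = 0.000186) and by 1.39 from Treg to TFR cells of PP (SE 0.15, adjusted p = 0.000294). TFR and TFH cells differed by 0.23 in pLN (adjusted p = 0.591) and -0.08 in PP (adjusted p = 1). The log2 difference of Treg minus naive cells was -0.65 (adjusted p = 0.045) and that of PP minus pLN Treg cells -0.72 (adjusted p = 0.0394), both smaller than the minimum. A second probe gave -2.66 (adjusted p = 3.16e-05), -1.86 (adjusted p = 0.000921) and -1.27 (adjusted p = 0.00521) for the 3 calls.

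The other source of cytosolic acetyl-CoA, Acly, which cleaves citrate, read 18088 to 39524 over the 20 arrays and passed in no comparison. Acaca, which makes malonyl-CoA, read 2007 to 4970.0, with its largest difference, -0.69, between TFR cells of PP and pLN (adjusted p = 0.0347). Fasn, the fatty acid synthase, read 159 to 289.6, and none of its differences passed. In this group, 1 of the 4 genes passed between fractions. The plot of 8 genes by array shows that the groups of Acss2 lie far apart against the spread within a group.

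**Figure D3:**
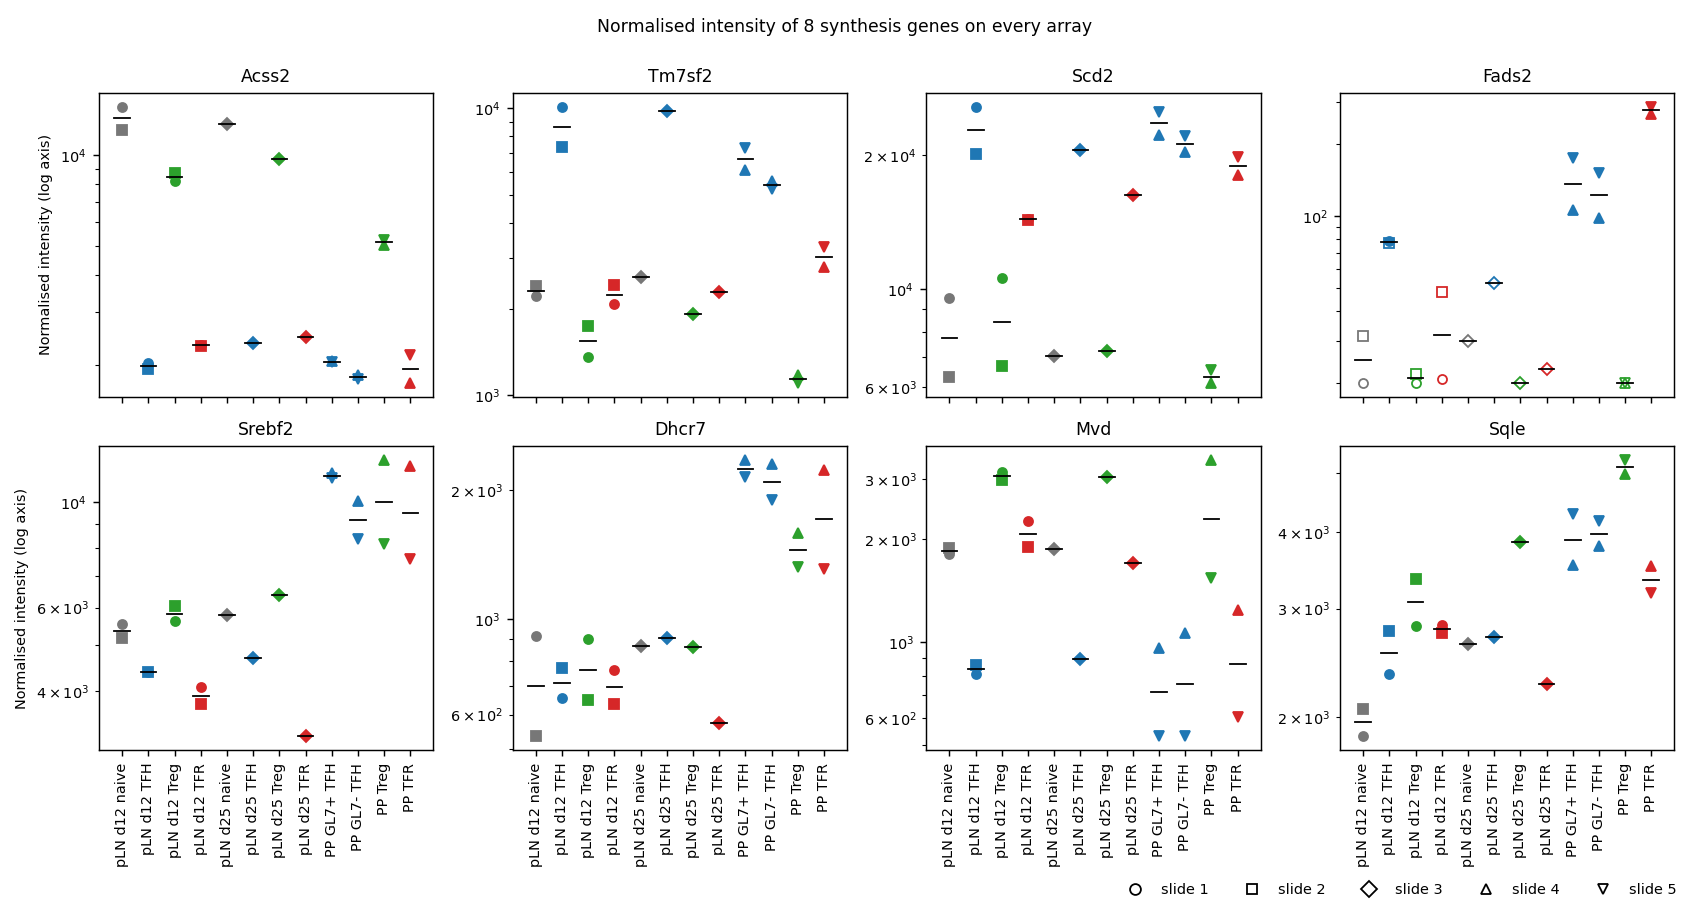
Normalised intensity (log axes) of 8 genes in the 12 groups (x axis). Each symbol is 1 array, its shape gives the slide, open symbols for Fads2 were not detected, and bars are means of log2 values. Acss2 is low in all follicular groups, Tm7sf2 and Scd2 are high in TFH groups, Fads2 is detected mainly in follicular PP cells, and Srebf2 and Dhcr7 are higher in PP.

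Among the 7 desaturation and elongation genes, Scd2 was higher in TFH than in naive cells of pLN and in TFR than in Treg cells of PP, and Fads2 was detected mainly in follicular PP cells. Scd2, a stearoyl-CoA desaturase that makes monounsaturated fatty acids (probe at chr19:44381024-44381083, + strand, mm9), read 9509.8 and 6325 in naive, 25801 and 20191 in TFH, 10598 and 6706 in Treg and 14347 and 14325 in TFR cells of pLN d12. The values were 7064, 20563, 7224 and 16246 on d25, and 22281 and 25084, 20315 and 22091, 6129 and 6538, and 18067 and 19807 in the GL7+ and GL7- TFH, the Treg and the TFR cells of PP. Every follicular array was above every naive and Treg array. Scd2 rose by 1.56 from naive to TFH cells (SE 0.25, adjusted p = 0.00145) and by 1.58 from Treg to TFR cells of PP (SE 0.25, adjusted p = 0.00253), while in pLN the Treg to TFR difference was 0.77 (SE 0.25, adjusted p = 0.0825). Without slide 4 the PP difference was 1.60 (adjusted p = 0.121).

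Scd1, the paralogue of Scd2, did not follow it. It was detected on 15 of 20 arrays and read 464 and 341 in naive, 852 and 91.8 in TFH, 85.1 and 487 in Treg and 73.6 and 52.2 in TFR cells of pLN d12, and 70.2, 93.8, 139 and 36.8 on d25. The 4 arrays of d25 and TFR replicate 2 of d12 were the undetected ones. In PP it read 1501 and 209 in GL7+ TFH, 917 and 77.2 in GL7- TFH, 5666 and 307 in Treg and 8537 and 44.7 in TFR cells, the first value of each pair being from slide 4. The arrays of a group thus differed by 7.20 to 191 times in PP, and no Scd1 difference passed (standard error 2.37 for a pair of groups). The epithelial markers, which stood 3.43 to 12.9 times higher on slide 4 than on slide 5 in the same fractions, and the B cell markers, which stood 2.82 to 11.4 times higher, moved in the same direction. In TFR cells, where Scd1 differed most (191 times), the epithelial sum differed least (3.43 times) and the B cell sum most (11.4 times). The part of these markers in Scd1 was not tested. Scd2 was 0.888 to 0.937 times its slide 5 value on slide 4. The plot of both desaturases beside the marker sums shows this.

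**Figure D4:**
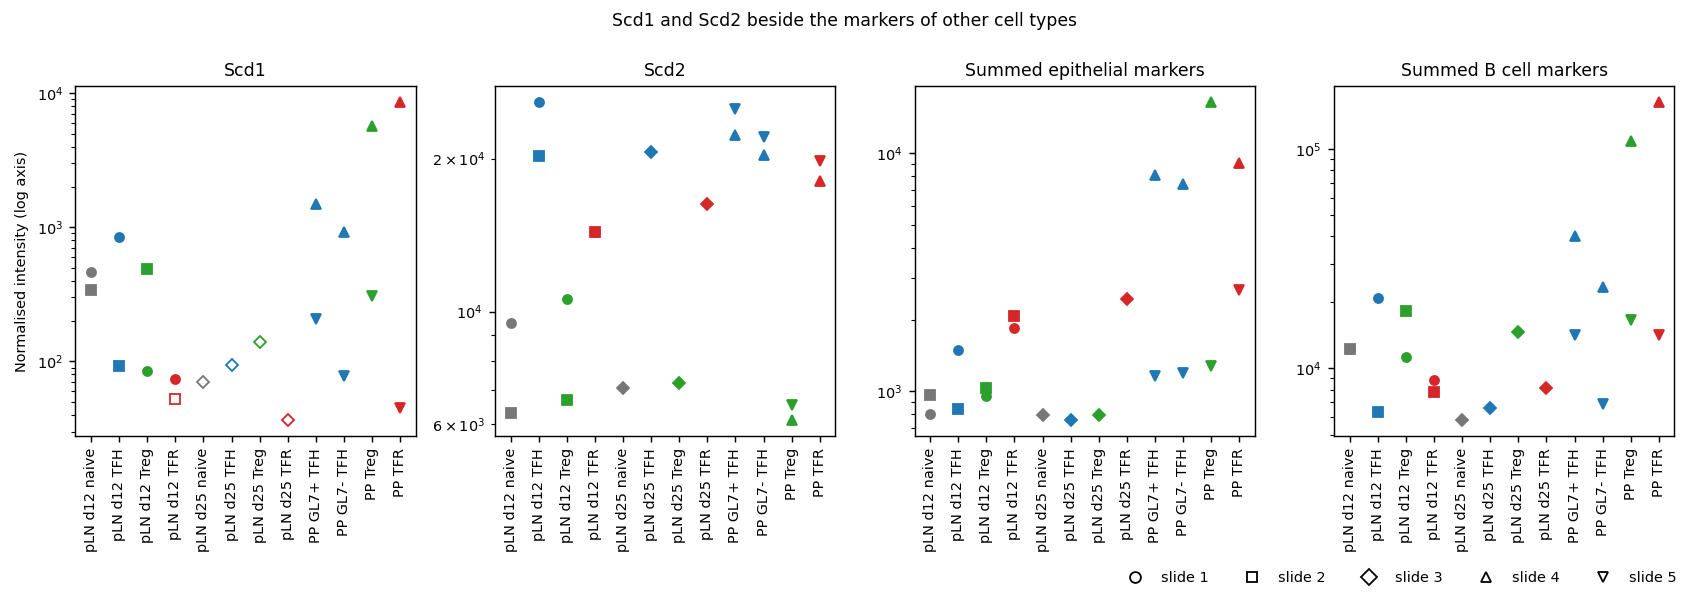
Normalised intensity of Scd1 and Scd2 and summed intensity of 9 epithelial and 11 B cell markers (log axes) in the 12 groups (x axis), 1 symbol per array with the slide as its shape and open symbols where Scd1 was not detected. Scd1 and both marker sums are higher on slide 4 (upward triangles) than on slide 5 (downward triangles) in all 4 PP fractions, and Scd2 is not.

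Fads2, which desaturates polyunsaturated fatty acids at the first step (probe at chr19:10137760-10137819, - strand, mm9), was detected on 7 of 20 arrays, 6 of them follicular PP arrays. It read 20 and 31.4 in naive, 78.6 and 77.4 in TFH, 20 and 21.7 in Treg and 20.8 and 48.1 in TFR cells of pLN d12, of which TFH replicate 1 alone was detected, and 30.04, 52.2, 20 and 22.9 on d25, with none detected. In PP it read 106 and 175 in GL7+ TFH, 98.6 and 151 in GL7- TFH and 269 and 288 in TFR cells, and was at the floor of 20 in both Treg arrays. Follicular PP arrays did not overlap with any other array, and TFR arrays were the highest. Fads2 rose from Treg to TFR cells of PP (adjusted p = 0.000209) and from pLN to PP TFR cells (adjusted p = 0.000974). With the dim group set at the lowest intensity of a detected probe on each array, these were 8.22-fold and 5.07-fold. Such folds are not lower limits, as an undetected probe can lie above that intensity. On TFH replicate 2 of pLN d12, Fads2 read 77.4 undetected, where the lowest detected intensity was 67.6. Fads2 was tested only through follicular PP groups, which had it detected on both arrays. Both tests use those same groups, so their p-values are no independent support. From naive to TFH cells of pLN Fads2 rose 1.27-fold by the same setting (adjusted p = 0.014, 1 of 2 TFH arrays detected). That call was lost without TFH replicate 1, 1.63 (adjusted p = 0.0692), TFH replicate 2, 1.65 (adjusted p = 0.0598), or naive replicate 1, 1.31 (adjusted p = 0.122), and with normexp background correction, 0.73 (adjusted p = 0.0502).

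The fitted change of Fads2 from Treg to TFR cells was larger in PP than in pLN, by 3.20 on the log2 scale (SE 0.55, adjusted p = 0.0398). Fads2 was not detected on any Treg array or on either TFR array of pLN d12, so this value rests on intensities that were not above background and is not a measured size. The test uses PP TFR cells, a group through which Fads2 was tested, so its p-value is no independent support. With normexp background correction the difference was 1.52 (adjusted p = 0.0729) and not a call. This test was lost in 15 of 28 alternative settings, including the omission of 7 of the 8 Treg and TFR arrays of pLN d12 and PP, 1 at a time (log2 differences of 2.59 to 3.26, adjusted p = 0.102 to 0.157). Without TFR replicate 2 of pLN d12, the array with the high background, it was 3.80 (adjusted p = 0.0197). Its adjusted p was 0.00717 with slide as a block. A second Fads2 probe gave 1.14 (adjusted p = 0.0675) for TFH minus naive cells, 2.53 (adjusted p = 0.002) for TFR minus Treg in PP, 2.04 (adjusted p = 0.00646) for PP minus pLN TFR cells and 1.93 (adjusted p = 0.221) for the tissue difference. Fads1, which follows Fads2 in the same pathway, read 491 to 958 and passed in no comparison.

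Of the elongases, Elovl6, which lengthens saturated and monounsaturated chains made by Fasn, was lowest in TFH cells of pLN. It read 1366 and 1633 in naive, 559.6 and 813 in TFH, 1388 and 1549.8 in Treg and 1184 and 1275 in TFR cells of d12, and fell by 1.15 from naive to TFH cells (SE 0.27, adjusted p = 0.0121). The d25 TFH array, at 571, was also below the d25 naive array, at 1158. Without TFH replicate 1 the difference was -0.88 (adjusted p = 0.103), and without naive replicate 2 -1.02 (adjusted p = 0.0749), and the call was lost in both. Elovl1, for very long chains, and Elovl5, for polyunsaturated chains, read 13435 to 19465 and 7862 to 18098 and passed in no comparison. Of the acyl-CoA synthetases, which activate fatty acids for further use, Acsl3 read 42.7 to 276 and Acsl4 4347 to 6255, without a call. On the pLN slides Acsl3 was lower in TFR than in TFH cells, with a log2 difference of -1.27 (adjusted p = 0.476, and 0.00154 with slide as a block).

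Of all comparisons, TFH against naive cells of pLN d12 gave the most calls. Tm7sf2, Scd2 and Fads2 rose (3 of 35 genes, against 9.27% of all probes called higher) and Acss2 and Elovl6 fell (2 of 35, against 5.48% called lower). Fads2 was detected on 1 of the 2 TFH arrays and on neither naive array. Its difference thus rests mostly on intensities not above background, and its call was lost in 5 of 27 alternative settings. The median log2 difference was 0.10 over the 35 genes and -0.09 over all probes tested. The calls lay in the sterol branch (1 of 9 genes), desaturation and elongation (3 of 7) and acetyl-CoA supply (1 of 4), and none of the 13 genes of SREBP control and the mevalonate steps passed. With slide as a block 7 of 35 genes were called, against 19.1% of all probes, the 2 more being Mvd (-1.15, adjusted p = 6.87e-05) and Stard4 (1.11, adjusted p = 0.00098). Cycling-cell markers moved with this comparison, as all 9 tested were called higher, and their part in it was not tested.

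Treg against naive cells gave no call among the 35 genes, while 2.86% of all probes were called higher and 0.898% lower. Acss2 passed the adjusted p but not the minimum, and 6 of the 35 genes had an unadjusted p under 0.05, as did 2501 of all 22264 probes. The largest differences were -0.97 for Scd1 (adjusted p = 1), 0.73 for Mvd (adjusted p = 0.808) and 0.65 for Sqle (adjusted p = 0.0645), and the median was -0.01 over the 35 genes and -0.03 over all probes tested.

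From Treg to TFR cells of pLN d12, Acss2 fell (1 of 35 genes, 2.56% of all probes called lower) and none rose (5.79% called higher). Scd1 (-1.72, adjusted p = 0.776) and Stard4 (0.95, adjusted p = 0.331) had the next largest values. The same gates in PP gave 3 genes that rose, Fads2, Scd2 and Tm7sf2 (6.23% of all probes called higher), and 1 that fell, Acss2 (3.02% called lower). Fads2 was tested only through follicular PP groups, so its call here is no independent support. Median log2 differences were 0.00 over the 35 genes and -0.08 over all probes tested in pLN, and -0.28 over the 35 genes and -0.05 over all probes tested in PP. The PP count with slide as a block was 6 of 35, against 13.9% of all probes, the 2 more being Mvd (-1.40) and Idi1 (-1.15), which fell. Cycling-cell markers moved with both, with 9 of 9 called higher in pLN and 5 of 9 in PP, and their part was not tested. Without slide 4, 3 of 35 were called in PP, of which Acss2 (-1.27) and Mvd (-1.35) fell and Fads2 rose.

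The direct test of whether the step from Treg to TFR cells differed between the tissues called Fads2 (1 of 35 genes, 0.346% of all probes called higher in PP, 0.202% lower). That test uses a group through which Fads2 was tested, so its p-value is no independent support. The size rests on intensities that were not above background, and the call was lost in 15 of 28 alternative settings. Differences of the 7 mevalonate genes had a median of -0.65, those of the 9 sterol branch genes -0.28 and all probes 0.03. With slide as a block 4 of 35 genes were called, against 4.58% of all probes: Fads2 upward, and Idi1 (-1.67), Stard4 (-1.33) and Cyp51 (-1.08) downward, with adjusted p-values of 0.0103, 0.0187 and 0.0187.

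TFR cells set against TFH cells were lower in Tm7sf2 in both tissues, the 1 gene called in each. In pLN d12, 2.2% of all probes were called lower and 2.81% higher. In PP against GL7+ TFH cells, 1.09% were called lower and 2.34% higher. In pLN the difference of Scd1 was larger but did not pass (-2.18, adjusted p = 0.853), and that of Mvd was 1.31. Of the markers, 3 of 4 for naive T cells were higher (median log2 difference 1.75) and 3 of 4 for follicular T cells lower (median -2.13) in TFR than in TFH cells of pLN, and their part was not tested. Next in size in PP were Fads2 (1.03, adjusted p = 0.288) and Acsl3 (-0.76, adjusted p = 1). With slide as a block 4 of 35 genes were called in pLN, against 8.24% of all probes: Mvd (1.31) upward and Tm7sf2, Acsl3 (-1.27) and Fads2 (-1.30) downward. Of the arrays compared, Fads2 was detected on TFH replicate 1 alone, so its value rests mostly on intensities not above background. Whether follicular cells of the helper and regulatory lineages differ in their step from non-follicular cells was tested in pLN, where Tm7sf2 was called (1 of 35, 1.55% of all probes higher and 0.624% lower). That call was lost in 18 of 27 alternative settings. Fads2 stood at 1.04 (adjusted p = 0.72) and Scd1 at 1.21 (adjusted p = 1).

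Between GL7+ and GL7- TFH cells of PP none of the 35 genes was called, as was so for 0% (higher) and 0.00898% (lower) of all probes. By limma 1 of the 35 genes had an unadjusted p under 0.05, against 254 of all 22264 probes, and the methods' t-test also called none. The log2 differences ran from -0.24 to 1.07, with 1.07 for Scd1 (SE 2.37), 0.42 for Fasn (SE 0.18) and 0.31 for Srebf2 (SE 0.24). A p that misses the threshold does not show that the fractions are alike.

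The tissue comparisons put 3 control and sterol genes higher in PP. In GL7+ TFH cells Srebf1, Srebf2 and Dhcr7 rose (3 of 35, 2.36% of all probes called higher) and none fell (2.18% lower). In TFR cells Srebf2, Dhcr7 and Fads2 rose (3 of 35, 5.74% of all probes called higher) and none fell (5.39% lower). Fads2 was tested only through follicular PP groups, so its call in TFR cells is no independent support. In Treg cells none passed (1.82% higher and 0.422% lower), although 16 of 35 genes had an unadjusted p under 0.05, as did 3248 of all 22264 probes, and the largest differences were 2.70 for Scd1, 0.92 for Dhcr7 and 0.89 for Cyp51. Median log2 differences were 0.22 over the 35 genes and 0.03 over all probes tested in TFH, 0.02 over the 35 genes and 0.00 over all probes tested in TFR, and 0.13 over the 35 genes and -0.05 over all probes tested in Treg cells. The 9 sterol branch genes had medians of 0.57, 0.27 and 0.68. These 3 comparisons lie across slides, so slide, tissue and labelled immunisation cannot be told apart in them. The B cell and epithelial markers of slide 4 moved with PP, as did the cycling-cell markers in TFR cells, of which 8 of 9 were called lower in PP. Of 4 naive T cell markers, all 4 were lower in PP TFR cells (median -2.25) and 2 in PP GL7+ TFH cells (median -1.49), and of 4 follicular T cell markers 3 were higher in PP TFR cells (median 2.35). The part of these markers in the results was not tested. Values without slide 4 stand beside Srebf1, Srebf2 and Dhcr7.

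**Figure D5:**
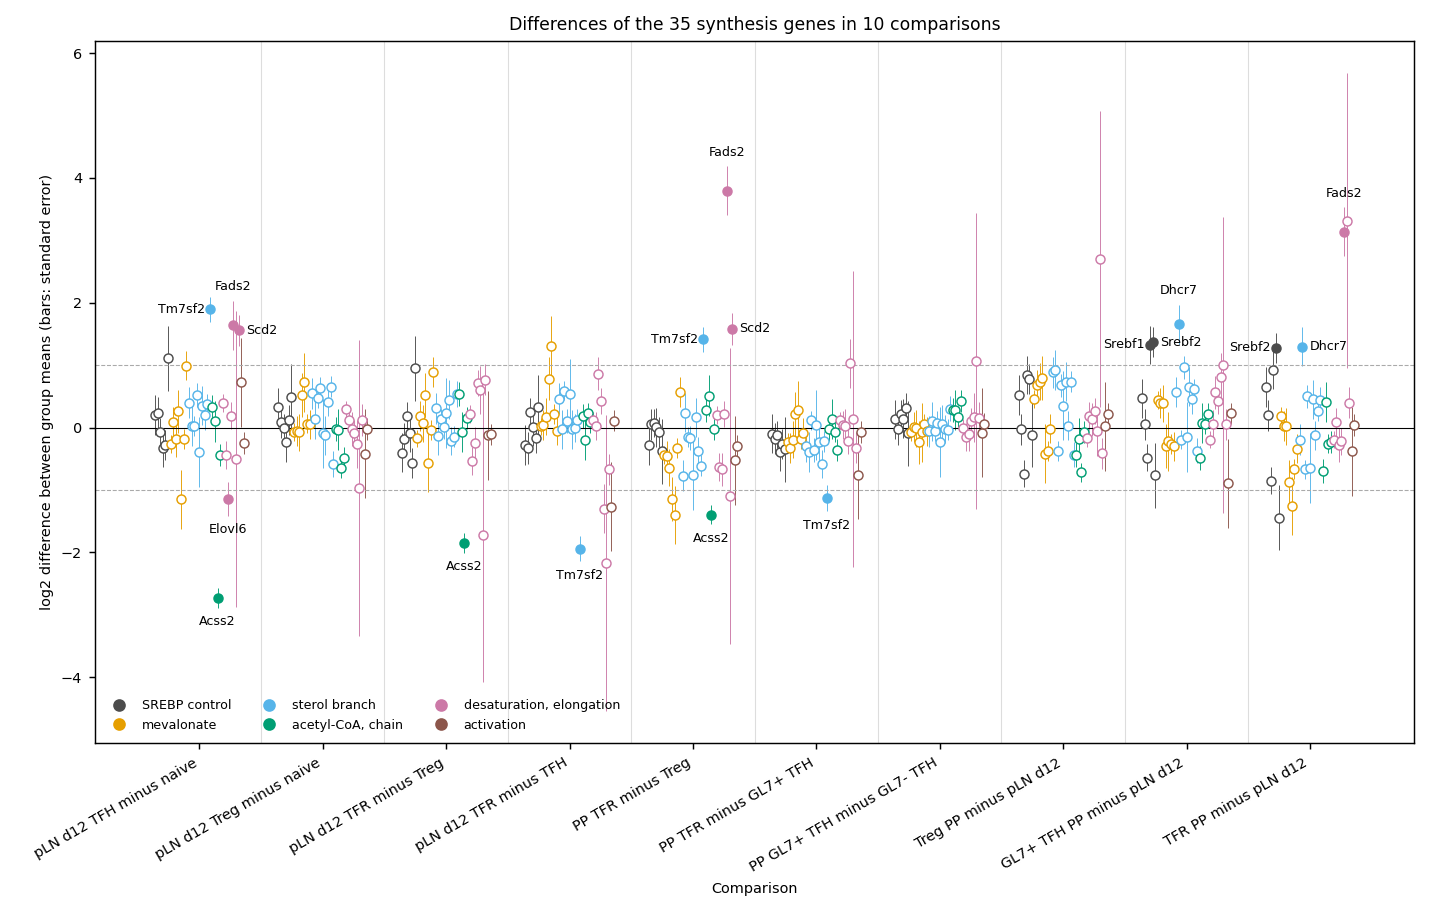
Log2 differences of group means (y axis, bars are standard errors) of the 35 genes in 10 comparisons (x axis), coloured by role. Filled symbols passed the test and are named, open symbols did not, and dashed lines mark the minimum of 1. Most genes lie between -1 and 1, and the widest bars are those of Scd1.

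From d12 to d25, averaged over the 4 pLN fractions, none of the 35 genes was called and 0 had an unadjusted p under 0.05 in limma, against 2098 of all 22264 probes, with 0.0135% of all probes called higher and 0.0269% lower. The largest differences were -1.35 for Scd1 (SE 1.45), 0.54 for Acsl3 (SE 0.44) and -0.30 for Elovl6 (SE 0.16). With 1 array per fraction, the d25 groups were assumed to vary like the groups of 2.

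Neighbouring lipid genes were read beside the 35, with values given as log2 differences. Of 13 tested genes of sterol efflux, storage and the LXR and oxysterol systems, 3 fell from naive to TFH cells and none rose, against 5.48% of all probes called lower and 9.27% higher: Mylip, the LXR target that degrades lipoprotein receptors, -1.25 (adjusted p = 0.00468), Npc2, which moves cholesterol out of lysosomes, -2.13 (adjusted p = 0.0209), and Abca1, the cholesterol exporter, -1.64 (adjusted p = 0.0332). Mylip also fell from Treg to TFR cells of pLN, -1.36 (adjusted p = 0.00558), and Lipa, the lysosomal lipase, from Treg to TFR cells of PP, -1.22 (adjusted p = 0.0413), a call lost in 13 of 28 alternative settings, for example -1.07 (adjusted p = 0.409) without slide 4. The naive to TFH calls of Mylip, Npc2 and Abca1 were lost in 3, 5 and 4 of 27 alternative settings, the smallest Abca1 difference being -0.94. The remaining 10 comparisons gave no call in this list. Of 12 genes of prenylation and isoprenoid use, Fntb, the beta chain of farnesyltransferase, fell from naive to TFH cells, -1.87 (adjusted p = 0.00101), and was higher in PP than in pLN in GL7+ TFH, 1.66 (adjusted p = 0.0106), and TFR cells, 1.11 (adjusted p = 0.025), while Pdss1, of ubiquinone side chain synthesis, was lower in PP TFR cells, -1.89 (adjusted p = 0.00369). These 3 Fntb calls were lost in 1, 6 and 7 of 27 alternative settings. Fntb was not detected on TFR replicate 2 of pLN d12.

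Of 17 other synthesis and SREBP processing genes, Elovl7, an elongase of very long chains, fell. It read 371 and 631 in naive cells of d12 and 634 on d25 and was not detected on any array of the other fractions. With the dim group set as for Fads2, it was 13.1-fold lower in TFH and 11.1-fold lower in Treg cells than in naive cells of d12 (adjusted p = 1.81e-05 and 7.63e-05). These folds are not lower limits either. Elovl7 was tested only through naive cells of d12, so these p-values are no independent support. Acacb, the mitochondrial acetyl-CoA carboxylase, was higher in TFR than in TFH cells of pLN, 1.9996 (adjusted p = 0.0135), and lower in PP than in pLN TFR cells, -1.33 (adjusted p = 0.044). Acacb was not detected on TFH replicate 2 of pLN d12 (48.0), so the value of 1.9996 rests partly on an intensity not above background. The second Acacb call was lost in 16 of 27 alternative settings, for example -0.79 (adjusted p = 0.325) without slide 4. Hacd3, of chain elongation, was higher in TFR than in Treg cells of PP, 1.84 (adjusted p = 0.00307). Of 18 genes of fatty acid uptake and oxidation, 2 rose and 1 fell from naive to TFH cells, against 9.27% and 5.48% of all probes: Fabp5, a fatty acid binding protein, 1.45 (adjusted p = 0.0146), Pparg, the lipid-sensing nuclear receptor, 1.26 (adjusted p = 0.0192), and Acaa2, a mitochondrial thiolase, -1.02 (adjusted p = 0.00397). Fabp5 and Pparg also rose from Treg to TFR cells of pLN, 1.51 (adjusted p = 0.0197) and 2.44 (adjusted p = 0.00123), and were higher in TFR than in TFH cells of pLN, 1.78 (adjusted p = 0.0133) and 1.27 (adjusted p = 0.0457), of which the Pparg call was lost in 15 of 27 alternative settings (adjusted p of up to 0.318).

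Pparg read 797 and 592 in TFR cells of pLN d12 and 419.6 on d25, above all other arrays, and 169 and 159.8 in PP TFR cells, a difference between tissues of -2.06 (adjusted p = 0.00261). On naive replicate 2 and Treg replicate 2 of pLN d12, Pparg was not detected (103 and 93.8). Its rises from naive and from Treg cells given above thus rest partly on intensities not above background. Slc27a4, a fatty acid transporter, was higher in PP than in pLN TFR cells, 1.85 (adjusted p = 0.00294), and Fabp5 was higher in Treg than in naive cells, 1.73 (adjusted p = 0.019). The Fabp5 calls were lost in 3 to 6 of 27 alternative settings each. Of the 18 genes, those of mitochondrial fatty acid oxidation other than Acaa2 passed in no comparison.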

How the data were processed

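RNA of sorted CD4 T cell fractions was measured on 20 single-colour Agilent arrays, grouped by the labels into 12 groups. The deposited intensities are scanner values made by the authors with Agilent Feature Extraction (version 10.7.3.1), and a deposited table holds the authors' normalised intensities. Following the authors' methods, features that were flagged as outliers, lay outside 1.42 interquartile ranges or had a pixel CV above 0.5 were left out, and the rest were averaged as a geometric mean per probe. Arrays were made alike by quantile normalisation, the 75th percentile was set at 1500, values under 20 were raised to 20, and log2 was taken. The median absolute log2 difference from the authors' values was 0.03 to 0.04 per array. Detection ran from 43.0 to 58.0% of probes, replicates correlated at 0.955 to 0.986 across probes, and the number of arrays limits the precision.

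Group means were compared with limma (version 3.58.1, R 4.3.3, data.table version 1.17.8) in a single model with 8 residual degrees of freedom, tested on simulated data. A probe was tested where some group had it detected on each of its 2 arrays. Fads2 and Elovl7 met this only in the groups where they were high. Every gene that passed is named, and the 10 of lowest F test p have values for each array. In comparisons with fewer than 3 calls the largest differences are named too. Mvd, Pmvk, Elovl6, Idi1 and Cyp51 were given further values after their values were seen. The genes and lists were chosen with earlier results of these data known. Alternatives were scaling, background correction, filter, slide, RNA input, groups fitted and arrays left out. A result among the other lipid genes is not reported here.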

Additional observations from a re-analysis of the deposited data

Results flagged for a closer look

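A pair of results differed between groups by a test of the difference itself. The fitted change of Fads2 from Treg to TFR cells was larger by 3.20 in PP than in pLN of d12, on the log2 scale (limma, adjusted p = 0.0398), but Fads2 was not detected on any Treg array or on either TFR array of pLN d12, so the value rests on intensities that were not above background and is not a measured size. With normexp background correction it was 1.52 (adjusted p = 0.0729). The test uses a group through which Fads2 was tested, so its p-value is no independent support. The change of Tm7sf2 from non-follicular to follicular cells was larger in the helper than in the regulatory lineage of pLN d12 by 1.35 (limma, adjusted p = 0.0434). This call was lost in 18 of 27 alternative settings. No group held the 4 arrays that a test for outlying samples needs.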

How the results depend on the processing

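Of 381 counts of called genes recomputed under the alternatives, 305 were within 1.5 times the reported count. These include comparisons without a call and omissions of arrays from groups that a comparison does not use, so the share does not measure stability. The same holds for the single-gene values below. With 75th percentile scaling only, 2 genes were called for TFR minus TFH in pLN, 6 for TFR cells of PP minus pLN and 0 for the difference between lineages. Normexp background correction gave 0 for the difference between tissues, and no filter on dim probes gave 0 for that and 0 for the lineages. Slide as a fixed block gave 4 for TFR minus TFH and 4 for the difference between tissues. As a random block it gave 4, 4, and 2 for TFR minus GL7+ TFH in PP. RNA input as a covariate gave 4 for TFR minus TFH, 5 for TFR cells of PP minus pLN, 4 for the difference between tissues and 15 by the F test. Fitting only the compared groups gave 3 for TFH minus naive and 0 for TFR minus TFH, TFR minus Treg in PP, TFR minus GL7+ TFH, both tissue comparisons with calls and both differences of differences. With no minimum fold, 1 was called for Treg minus naive, 2 for TFR minus Treg in pLN, 1 for Treg cells of PP minus pLN and 7 for TFR cells.

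Leaving out 1 array at a time gave 3 to 5 for TFH minus naive, 1 to 2 for TFR minus Treg and for TFR minus TFH in pLN, 4 to 5 for TFR minus Treg in PP, 0 to 1 for TFR minus GL7+ TFH, 0 to 3 for GL7+ TFH and 1 to 3 for TFR cells of PP minus pLN, 0 to 1 for both differences of differences, 4 to 7 by the F test, and 0 to 0 for Treg minus naive, GL7, Treg cells of PP minus pLN and d25 minus d12. Without all PP arrays of replicate 1 the counts were 3 for TFR minus Treg in PP, 1 for GL7+ TFH, 2 for TFR cells, 0 for TFR minus GL7+ TFH, 0 for the difference between tissues and 2 by the F test.

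Of 1848 values of single genes, 1626 kept their side of the threshold, 206 calls were lost, 10 were gained and 6 changed sign. The sign changed for Acsl3 in d25 minus d12 with RNA input (-0.0092), and for Scd1 with 1 array left out, where it ran from -0.40 to 2.82 in the lineage difference (-0.05 without Treg replicate 2 of pLN d12), from -2.22 to 0.29 in Treg minus naive and from -0.71 to 2.86 in GL7+ minus GL7- TFH (-0.35 without GL7+ replicate 1). The causes were not tested. The F test with slide as a fixed block was not run, and that block could not be fitted for tissue and day. Replicate numbers follow accession order and pair nothing, and samples were paired by slide instead, as a block. Signal over background limits Fads2, Scd1 and Acsl3. It also limits Elovl7, Acacb, Pparg and Fntb of the other lipid genes, which were undetected on some of the arrays compared.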
